A study of Mus musculus with 15 samples.

Results

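Mouse embryonic stem (ES) cells kept in growth factor reduced Matrigel were compared between the medium named PD032 and the medium named FGF2/Activin, gene by gene. The comparison used 6 of the 15 libraries of the study, 3 of PD032 and 3 of FGF2/Activin, chosen by the condition in their labels, and it covered all 15223 genes with enough counts to test. All cells were wild-type E14, a mouse ES cell line, and before the experiment all were maintained on gelatin in 0.4 µM PD0325901, an inhibitor of MEK, with 3 µM CHIR99021, an inhibitor of GSK3, and 4 ng/ml Lif. Cells were then embedded at 2000 cells per µl of Matrigel and covered with N2B27, a defined medium, to which the named additive was given, so the ES cells of both groups differ only in that additive as far as the labels say. The labels do not expand PD032, and they give no dose and no length of treatment. They write the FGF2/Activin condition also as FAK, without saying what the letters stand for, and they list no N2B27 group without additive. The other 3 conditions, 2iLif, Aurka inh and PD032+ Aurka inh, had 3 libraries each and are used below to show levels. Their libraries also entered the filter, the scaling and the estimate of spread behind the p-values. Nothing says whether the 3 replicates of a condition were separate cultures, so the p-values measure the spread between replicate libraries of all 15, which may be technical.

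ES cells leave the naive state of pluripotency through a formative state, in which they resemble the epiblast just after implantation, before they enter a lineage. FGF ligands act through FGF receptors, MEK and ERK, and active ERK switches on its own inhibitors (the Sprouty proteins and the dual specificity phosphatases) together with ETS factors of the Pea3 family. Activin and Nodal act through shared receptors and the factors Smad2 and Smad3, and they induce Nodal itself and its antagonists, the Lefty proteins. In mouse ES cells a MEK inhibitor is used to hold the naive state, while FGF2 with Activin is used to carry cells into the formative and primed states.

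Poly(A)-selected RNA was sequenced, and the deposited gene counts summed to 18421904 to 22683616 per PD032 library and to 15234243 to 15703321 per FGF2/Activin library. Levels are given as CPM, the counts of a gene over the total of its library, scaled by TMM factors, and they are compared within a gene, not between genes. The biological coefficient of variation between replicates was 9.32% in PD032 and 1.79% in FGF2/Activin. PD032 replicate 2 stood apart: counts of replicates 1 and 2 differed with a chi-square of 15.6 per degree of freedom, and those of 2 and 3 with 11.4, against 2.59 for replicates 1 and 3 and 1.24 to 1.57 for the pairs of FGF2/Activin. The count columns of PD032, Aurka inh and PD032+ Aurka inh are named in one style and those of FGF2/Activin and 2iLif in another, and no label says what the style marks. Over all genes tested, 8.80% had all 9 libraries of the first style on one side of all 6 of the second, and 0.499% (76 genes, 37 of them pseudogenes) did so by at least 2-fold. PD032 and FGF2/Activin lie on different sides of that split, so a batch that follows it and the medium cannot be told apart. Both groups carried the ES cell factors Pou5f1, at 449 ± 58.3 CPM in PD032 and 701 ± 18.1 CPM in FGF2/Activin (SD, n = 3 each), and Sox2, at 300.2 ± 21.9 CPM and 172 ± 2.6 CPM in the same order.

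Most genes differed between the media. By the quasi-likelihood test of edgeR with a Benjamini-Hochberg adjusted p under 0.05, 4558 genes (29.9%) were higher and 4408 (29.0%) lower in PD032, and the median log2 fold change over all genes tested was 0.02. At least 2-fold, 1499 genes (9.85%) were higher and 1344 (8.83%) lower. Without PD032 replicate 2 the counts were 4512 higher and 4404 lower, and 1544 and 1367 at least 2-fold. The libraries of both groups did not overlap for 67.0% of the genes tested. Of the 2843 genes that passed at 2-fold, 495 also separated the naming styles, and among pseudogenes the share was 133 of 220.

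**Figure D1:**
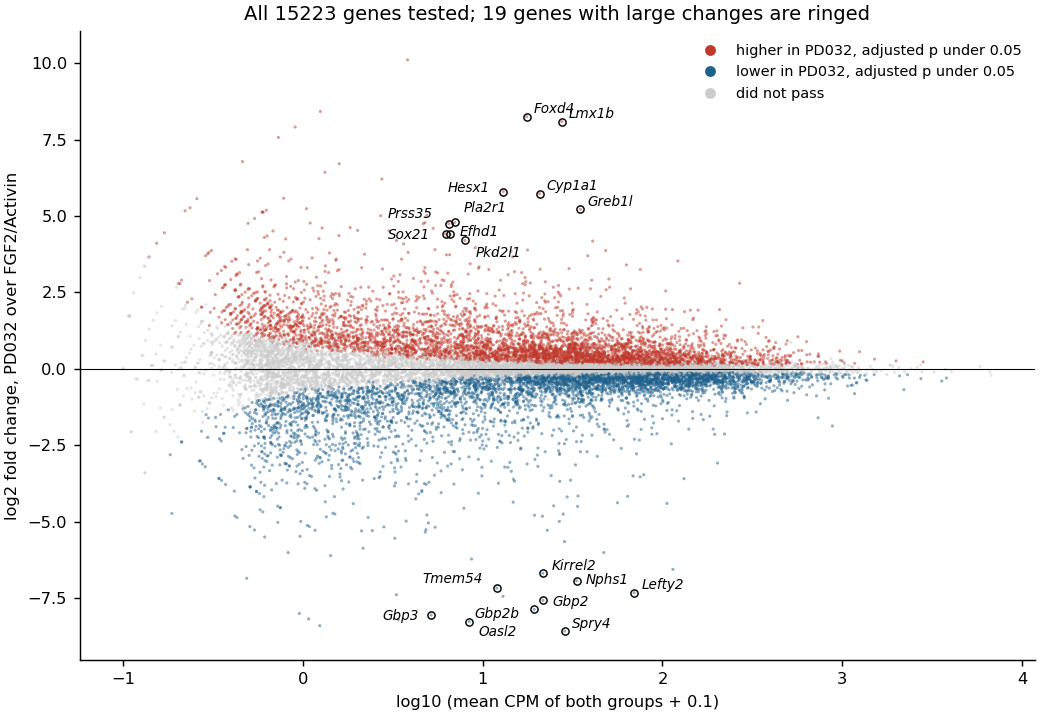
Log2 fold change of PD032 over FGF2/Activin against the log10 of the mean CPM of both groups plus 0.1, one point per gene tested (15223). Genes that passed at an adjusted p under 0.05 are coloured, 4558 higher and 4408 lower, and rings mark genes named by size, from Foxd4 at 8.25 to Spry4 at -8.58.

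The genes with the largest fall in PD032 included targets of ERK, targets of Nodal, interferon-inducible genes and a pair of genes known from kidney podocytes. Under the naming rule they included Spry4, Oasl2, Gbp3, Gbp2b, Gbp2, Lefty2, Tmem54, Nphs1 and Kirrel2. The genes with the largest rise were developmental transcription factors, a cytochrome P450 and genes of other kinds: Foxd4, Lmx1b, Hesx1, Cyp1a1, Greb1l, Pla2r1, Prss35, Sox21, Efhd1 and Pkd2l1. Foxd4, a forkhead factor of the early neural ectoderm, had 34.7, 28.1 and 41.5 CPM in PD032, against 0.0655, 0 and 0.256 CPM in FGF2/Activin. Lmx1b, a LIM homeodomain factor of the midbrain and limb, had 58.0, 46.8 and 59.0 CPM in PD032, against 0.131, 0.255 and 0.192 CPM in FGF2/Activin. Both were near 0 in every FGF2/Activin library and the groups did not overlap. Their log2 fold changes were 8.25 ± 0.37 (SE; edgeR adjusted p = 2.4e-10) for Foxd4 and 8.09 ± 0.28 (edgeR adjusted p = 1.3e-11) for Lmx1b, and that of Foxd4 was 9.80 without FGF2/Activin replicate 3. In the other conditions Foxd4 stayed at 0 to 0.192 CPM on average, and Lmx1b reached 3.3 CPM in PD032+ Aurka inh.

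Cyp1a1, a cytochrome P450 that metabolises foreign compounds and a known target of the aryl hydrocarbon receptor, had 30.1, 59.2 and 32.3 CPM in PD032, against 0.917, 0.83 and 0.511 CPM in FGF2/Activin. It was also high in PD032+ Aurka inh, at 56.1 CPM on average, and stood at 0.924 CPM in 2iLif and 2.52 CPM in Aurka inh. The log2 fold change was 5.73 ± 0.64 (edgeR adjusted p = 4.1e-06). Greb1l, a gene needed for kidney development, averaged 67.9 ± 25.4 CPM in PD032 and 1.83 ± 0.372 CPM in FGF2/Activin (log2 fold change 5.22 ± 0.31, edgeR adjusted p = 2.3e-09), with replicate 2 lowest at 38.5 CPM. Pkd2l1, a cation channel of the polycystin family, had 26.0 CPM in PD032 replicate 2 and 9.32 and 9.35 CPM in the other two, against 0.702 to 0.852 CPM in FGF2/Activin, and its log2 fold change was 4.20 with all libraries and 3.54 without that replicate. Sox21, a SoxB2 factor of neural progenitors, averaged 11.7 ± 4.0 CPM in PD032 and 0.538 ± 0.203 CPM in FGF2/Activin. Pla2r1 (the receptor of secreted phospholipase A2), Prss35 (a protein of the trypsin family) and Efhd1 (a calcium-binding protein of mitochondria) had mean levels of 12.3 to 13.3 CPM in PD032 and 0.451 to 0.579 CPM in FGF2/Activin. Of these 10 higher genes, Lmx1b, Cyp1a1, Efhd1 and Pkd2l1 also separated the naming styles, and of the 10 lower genes Spry4 did.

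Targets of ERK were lower in PD032 almost throughout the list. Of 20 listed feedback inhibitors and targets, all tested, 17 were lower (10 of them at least 2-fold), 2 were higher and 1 did not pass, with a median log2 fold change of -0.99 against 0.02 over all genes. The shares were 85.0% lower and 10.0% higher, beside 29.0% and 29.9% of all genes tested. Spry4, an inhibitor of receptor tyrosine kinase signalling and the most strongly reduced gene under the naming rule, had 0.137, 0.268 and 0.0429 CPM in PD032, against 55.4, 56.5 and 58.4 CPM in FGF2/Activin. Etv4, an ETS factor of the Pea3 family, had 1.37, 1.72 and 1.24 CPM in PD032, against 90.2, 99.0 and 88.7 CPM in FGF2/Activin. Both genes were near the floor in each PD032 library and the groups lay far apart. The log2 fold changes were -8.58 ± 0.19 for Spry4 (edgeR adjusted p = 6.8e-15) and -6.01 ± 0.11 for Etv4 (edgeR adjusted p = 9.9e-16), and that of Spry4 was -9.22 without PD032 replicate 2. Spry4 lies on mm10 chromosome 18 from 38586247 to 38601415.

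Phosphatases that remove the activating phosphates from ERK fell as well. Dusp6, which is selective for ERK, had 10.4, 13.9 and 11.7 CPM in PD032, against 133, 140.4 and 141 CPM in FGF2/Activin. Dusp4, a nuclear member of the same family, had 6.54, 6.55 and 7.03 CPM in PD032, against 115, 122 and 126 CPM in FGF2/Activin. Neither gene's groups overlapped, and the log2 fold changes were -3.53 ± 0.089 for Dusp6 (edgeR adjusted p = 3.8e-14) and -4.17 ± 0.16 for Dusp4 (edgeR adjusted p = 1.2e-11). The other Pea3 factors fell less: Etv1 averaged 6.23 ± 0.974 CPM in PD032 and 20.5 ± 0.597 CPM in FGF2/Activin, and Etv5 283 ± 10.0 and 458 ± 6.79 CPM in the same order. Among the other inhibitors, Spry1 had a log2 fold change of -1.58 ± 0.098, Il17rd (Sef) of -1.22 ± 0.094, Spred1 of -1.03 ± 0.074, Spry2 of -0.59 ± 0.077 and Spred2 of -0.43 ± 0.079, and all of them passed. Spsb1, Lrrfip1, Fosl1, Dusp5, Ier3 and Ccnd1 (cyclin D1) passed with log2 fold changes between -1.53 and -0.42. Dusp5 no longer passed without PD032 replicate 2 (-0.30), nor Ier3 without PD032 replicate 1 (-0.42), PD032 replicate 2 (-0.35) or FGF2/Activin replicate 1 (-0.29).

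3 members of the list did not follow. Shisa2, an endoplasmic reticulum protein that retains FGF and Wnt receptors, had 31.0, 19.4 and 29.1 CPM in PD032, against 9.96, 9.57 and 7.79 CPM in FGF2/Activin. Rasl11b, a small GTPase of the Ras family, averaged 10.3 ± 1.82 CPM in PD032 and 6.72 ± 0.684 CPM in FGF2/Activin. Both rose, by log2 fold changes of 1.54 ± 0.17 (edgeR adjusted p = 1.2e-06) and 0.61 ± 0.15 (edgeR adjusted p = 0.002). Phlda1 stood at 0.698 ± 0.39 CPM in PD032 and 1.09 ± 0.0506 CPM in FGF2/Activin and did not pass, but it passed as lower without PD032 replicate 2 (-1.16, edgeR adjusted p = 0.045).

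The level of ERK targets in the other media differed by gene. Spry4 averaged 43.6 CPM in 2iLif, 17.1 CPM in Aurka inh and 0.647 CPM in PD032+ Aurka inh. Dusp4, in contrast, averaged 2.11 CPM in 2iLif, 69.8 CPM in Aurka inh and 7.58 CPM in PD032+ Aurka inh. Spry4 was thus low in both media with PD032 in their name and not in 2iLif, and Dusp4 was low in all 3. All cells were maintained in a MEK inhibitor, a GSK3 inhibitor and Lif, and 2iLif may be that same medium. The Spry4 level in 2iLif can therefore not be read as that of cells without a MEK inhibitor.

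**Figure D2:**
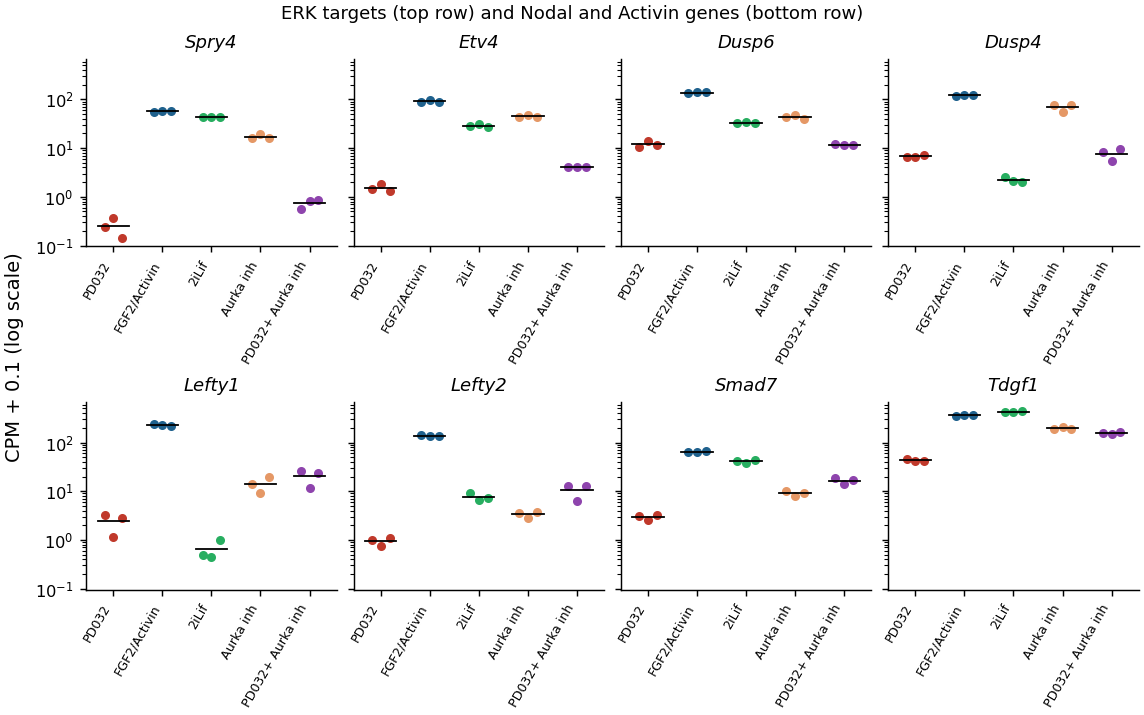
CPM plus 0.1 on a log scale for 8 genes in the 15 libraries, one point per library, with a bar at the mean of the 3 libraries of a group. Spry4, Etv4, Dusp6 and Dusp4 (top) and Lefty1, Lefty2, Smad7 and Tdgf1 (bottom) lie lower in every PD032 library than in every FGF2/Activin library.

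Immediate early genes, which serum and growth factors switch on within minutes, did not move one way. Of 11 tested members, 4 were higher (Fos, Fosb, Klf6 and Btg2) and 5 lower (Junb, Zfp36, Ier2, Atf3 and Srf). That is 36.4% higher and 45.5% lower, beside 29.9% and 29.0% of all genes tested. Egr1, a zinc finger factor induced by ERK, had 14.6, 0.644 and 26.2 CPM in PD032, against 26.4, 22.7 and 27.3 CPM in FGF2/Activin. Fos, the AP-1 subunit, had 9.92, 1.5 and 14.7 CPM in PD032, against 1.9, 1.4 and 1.47 CPM in FGF2/Activin. In both genes PD032 replicate 2 was far below replicates 1 and 3 and the groups overlapped. Egr1 did not pass (log2 fold change -0.85 ± 1.0, edgeR adjusted p = 0.49). Its value was -0.32 without PD032 replicate 2, -1.68 without PD032 replicate 3 and -1.81 with limma voom, none of which passed, and it passed without a filter on low counts (-0.82, edgeR adjusted p = 2.4e-15). Fos passed narrowly (2.48 ± 0.9, edgeR adjusted p = 0.029). Fos and Fosb no longer passed without PD032 replicate 1 (2.39 and 2.36), without PD032 replicate 3 (1.87 and 1.76) or without any 1 FGF2/Activin replicate (2.39 to 2.62 and 2.35 to 2.53), and they passed without PD032 replicate 2. Klf6, a Krüppel-like factor, averaged 111 ± 11.7 CPM in PD032 and 44.2 ± 2.51 CPM in FGF2/Activin without overlap.

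Fgfr2 and Fgfr1 were higher in PD032, while the FGF family genes Fgf15, Fgf8, Fgf13 and Fgf3 were lower. Of 12 tested FGF family genes, receptors and binding proteins, 3 were higher (25.0%), 5 lower (41.7%) and 4 did not pass (median log2 fold change -0.42). Over all genes tested 29.9% were higher and 29.0% lower. Fgfr2, a receptor of FGF ligands, had 141, 122 and 145 CPM in PD032, against 14.0, 14.7 and 14.1 CPM in FGF2/Activin, a log2 fold change of 3.25 ± 0.12 (edgeR adjusted p = 3.1e-12). Fgfr1, the main FGF receptor of the epiblast, averaged 163 ± 14.3 CPM in PD032 and 109 ± 4.12 CPM in FGF2/Activin (0.59 ± 0.063, edgeR adjusted p = 7e-07). Every PD032 library was above every FGF2/Activin library for both receptors, and Fgfr2 also separated the naming styles. Fgfbp1, a secreted carrier that releases FGFs from the matrix, rose by 1.89 ± 0.11 on the log2 scale. Fgfr3 and Fgfr4 stood at or below 1.2 CPM in both groups and did not pass.

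Fgf15, a ligand of the early neural tube, had 1.01, 0.859 and 1.5 CPM in PD032, against 45.4, 42.6 and 45.2 CPM in FGF2/Activin, a log2 fold change of -5.28 ± 0.18 (edgeR adjusted p = 1.1e-12). Fgf8, a ligand of the primitive streak, had 7 counts over the PD032 libraries and 110 over the FGF2/Activin libraries (-4.35 ± 0.55, edgeR adjusted p = 4.1e-06). Fgf15 was the only ligand of the list above 10 CPM in a group, and its PD032 libraries were all under 2 CPM. Fgf13, Fgf3 and Fgfbp3 passed with log2 fold changes of -1.7 ± 0.21, -1.49 ± 0.32 and -0.89 ± 0.19. Fgf17 stood at 3.75 ± 0.49 CPM in PD032 and 4.11 ± 0.822 CPM in FGF2/Activin and did not pass, and Fgf10 had 4 and 3 counts. Fgf2 itself was too low to test, with 18 counts in PD032 and 3 in FGF2/Activin.

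Targets of Nodal and Activin were lower in PD032 with 1 exception. Of 9 listed targets 8 were tested, and all 8 passed at 2-fold, 7 lower and 1 higher, with a median log2 fold change of -3.86. That is 87.5% lower and 12.5% higher, beside 8.83% and 9.85% of all genes tested at 2-fold. Lefty1, a secreted Nodal antagonist, had 3.15, 1.07 and 2.74 CPM in PD032, against 237, 224 and 216 CPM in FGF2/Activin. Lefty2, its neighbour and close paralogue, had 0.914, 0.644 and 0.986 CPM in PD032, against 143, 136 and 137 CPM in FGF2/Activin. Both were close to absent in PD032, with log2 fold changes of -6.56 ± 0.34 for Lefty1 (edgeR adjusted p = 9.7e-10) and -7.32 ± 0.25 for Lefty2 (edgeR adjusted p = 4.7e-12). How reads shared by the Lefty genes were counted is not given in the sources used here.

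Inhibitors of Smad signalling were among the other targets that fell. Smad7, an inhibitory Smad, averaged 2.82 ± 0.359 CPM in PD032 and 64.4 ± 3.25 CPM in FGF2/Activin (-4.5 ± 0.13, edgeR adjusted p = 1.3e-13). Pmepa1, which sequesters Smad2 and Smad3, averaged 2.7 ± 1.34 and 24.7 ± 0.853 CPM in the same order (-3.22 ± 0.21, edgeR adjusted p = 2.7e-09). Skil, a Smad corepressor, averaged 181 ± 19.3 CPM in PD032 and 483 ± 19.4 CPM in FGF2/Activin (-1.41 ± 0.12, edgeR adjusted p = 1.2e-07). Nodal itself had 22.6, 28.8 and 21.1 CPM in PD032, against 61.5, 57.9 and 57.9 CPM in FGF2/Activin, so its transcript was reduced but present (-1.3 ± 0.1, edgeR adjusted p = 2.4e-08). The exception was Gdf3, a ligand related to Nodal, with 131, 135 and 125 CPM in PD032, against 63.1, 64.1 and 62.6 CPM in FGF2/Activin (1.04 ± 0.065, edgeR adjusted p = 1.5e-09). Cer1 was too low to test, with 1 and 2 counts.

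Receptors and mediators of the pathway did not share one direction. Of 10 tested, 4 were higher (40.0%), 3 lower (30.0%) and 3 did not pass (median 0.13), beside 29.9% higher and 29.0% lower of all genes tested. Tdgf1 (Cripto), the Nodal co-receptor, had 45.3, 41.2 and 41.8 CPM in PD032, against 355, 361 and 370.1 CPM in FGF2/Activin. It was lower in PD032 than in any of the other conditions as well, which averaged 429 CPM in 2iLif, 194 CPM in Aurka inh and 155 CPM in PD032+ Aurka inh. The log2 fold change was -3.08 ± 0.059 (edgeR adjusted p = 1.9e-15), and Tdgf1 separated the naming styles. Smad3 rose (55.1 ± 1.09 CPM in PD032 and 24.7 ± 1.47 CPM in FGF2/Activin, 1.16 ± 0.086, edgeR adjusted p = 1.1e-08). The type I receptor Acvr1b, the type II receptor Acvr2a and the cofactor Foxh1 rose by 0.30 to 0.40 on the log2 scale. The type II receptor Acvr2b passed as lower at -0.35 ± 0.13 (edgeR adjusted p = 0.031), and Inhbb, an activin subunit, was lower with 12 counts in PD032 and 29 in FGF2/Activin. Acvr2b no longer passed without PD032 replicate 2 (-0.23) or without any 1 FGF2/Activin replicate (-0.37 to -0.35), nor Inhbb, at -1.69 with all libraries, without PD032 replicate 1 (-1.50), PD032 replicate 3 (-1.62) or FGF2/Activin replicate 3 (-0.89). Smad2 (-0.08 ± 0.052), Smad4 (-0.05 ± 0.065) and the activin-binding protein Fst (0.35 ± 0.22) did not pass.

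Most naive genes were higher in PD032. All 16 listed naive markers were tested and passed, 14 higher, 13 of them at least 2-fold, and 2 lower, with a median log2 fold change of 1.93. As shares, 87.5% were higher and 12.5% lower, beside 29.9% and 29.0% of all genes tested. Klf2, a Krüppel-like factor, had 89.9, 87.0 and 93.8 CPM in PD032, against 6.23, 5.23 and 7.09 CPM in FGF2/Activin (3.87 ± 0.17, edgeR adjusted p = 8.1e-11). Esrrb, an orphan nuclear receptor, had 183, 188 and 162 CPM in PD032, against 27.2, 31.7 and 31.9 CPM in FGF2/Activin (2.55 ± 0.12, edgeR adjusted p = 1.8e-10). Nanog, the homeobox factor, had 131, 119 and 114 CPM in PD032, against 36.4, 42.2 and 42.4 CPM in FGF2/Activin (1.59 ± 0.11, edgeR adjusted p = 1.3e-08). In each of these genes all PD032 libraries lay above all FGF2/Activin libraries. Prdm14, a repressor of FGF receptor genes in naive cells, averaged 6.67 ± 0.605 CPM in PD032 and 0.384 ± 0.254 CPM in FGF2/Activin, with 426 counts beside 18 (4.09 ± 0.39, edgeR adjusted p = 2.7e-07).

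The other naive genes that rose were Dppa3 (2.52 ± 0.25), Tbx3 (2.51 ± 0.48), Tcl1 (2.43 ± 0.32), Nr5a2 (2.15 ± 0.15), Zfp42 (1.95 ± 0.21), Klf4 (1.92 ± 0.12), Nr0b1 (1.54 ± 0.21), Tdh (1.34 ± 0.099), Tfcp2l1 (1.31 ± 0.14) and Klf5 (0.70 ± 0.082), as log2 fold changes with SE. They are transcription factors of the naive network apart from Dppa3 (a chromatin protein of oocytes and naive cells), Tcl1 (an Akt coactivator) and Tdh (threonine dehydrogenase). Several stood far below their level in 2iLif: Klf4 averaged 14.3 ± 2.16 CPM in PD032, 3.8 ± 0.168 CPM in FGF2/Activin and 338 CPM in 2iLif, and Tfcp2l1 66.3, 26.8 and 1303 CPM in the same order. Gbx2, a homeobox factor, had 1.6, 2.09 and 2.01 CPM in PD032, against 17.4, 18.2 and 17.6 CPM in FGF2/Activin, and fell by 3.22 ± 0.18 on the log2 scale (edgeR adjusted p = 4.5e-10). Fgf4, the FGF ligand of ES cells, averaged 169 ± 20.3 CPM in PD032 and 255 ± 3.51 CPM in FGF2/Activin (-0.60 ± 0.096, edgeR adjusted p = 6.3e-05). Gbx2 and Fgf4 were the 2 members against the direction of the list, and both separated the naming styles.

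Core pluripotency genes changed by less than 2-fold. Of 10 tested, 2 were higher, 5 lower and 3 did not pass (median -0.15). These counts stand beside 29.9% higher and 29.0% lower of all genes tested. Sox2 (0.80 ± 0.12) and Sall4 (0.70 ± 0.054), both factors of the core network, rose. Pou5f1 (Oct4) had 407, 516 and 426 CPM in PD032, against 711, 680.4 and 712 CPM in FGF2/Activin, so replicate 2 was the highest PD032 library and still below the other group (-0.64 ± 0.088, edgeR adjusted p = 1.3e-05). Utf1 (-0.72 ± 0.054), Dppa2 (-0.87 ± 0.067) and Dppa5a (-0.74 ± 0.23) also fell. Dppa5a had 429.5 CPM in PD032 replicate 2 and 244 and 247 CPM in the other two, and it no longer passed without PD032 replicate 1 (-0.60). Lin28a, Dppa4 and Trim28 had log2 fold changes of 0.03, -0.09 and 0.09 and did not pass, except Trim28 without PD032 replicate 1 (0.12).

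Most formative genes were lower in PD032. Of 16 listed, all tested, 12 were lower (8 at least 2-fold), 1 was higher and 3 did not pass, with a median log2 fold change of -0.99. As shares, 75.0% were lower and 6.25% higher, beside 29.0% and 29.9% of all genes tested. Myc, the growth-promoting transcription factor, had 2.51, 4.35 and 3.94 CPM in PD032, against 66.5, 63.2 and 62.3 CPM in FGF2/Activin (-4.16 ± 0.13, edgeR adjusted p = 7.9e-13). Fgf5, an FGF ligand that marks the early post-implantation epiblast, had 19, 16.5 and 20.6 CPM in PD032, against 81.7, 80.9 and 85.3 CPM in FGF2/Activin (-2.14 ± 0.18, edgeR adjusted p = 1e-07). Pou3f1 (Oct6), a POU factor of the same stage, had 81.8, 77.6 and 86.9 CPM in PD032, against 372, 353 and 356 CPM in FGF2/Activin (-2.13 ± 0.12, edgeR adjusted p = 1.3e-09). None of the 3 genes had overlapping groups, and Myc also separated the naming styles. Dnmt3a, a de novo DNA methyltransferase, averaged 378 ± 15.4 CPM in PD032 and 1385 ± 25.9 CPM in FGF2/Activin (-1.87 ± 0.10, edgeR adjusted p = 6.3e-10). Foxd3, Grhl2, Sall2 and Pim2, which are 3 transcription factors and a kinase, fell by log2 fold changes between -1.97 and -1.14, and Lin28b, Sox4, Dnmt3b and Lef1 by -0.84 to -0.49.

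Formative genes were not absent from PD032. Fgf5 averaged 0.0651 CPM in 2iLif, and Pou3f1 1.21 CPM, so in PD032 both were below FGF2/Activin and above 2iLif. Otx2, a homeobox factor that drives exit from the naive state, had 228, 223 and 216 CPM in PD032, against 166, 170.1 and 172 CPM in FGF2/Activin. It was the single formative gene that rose (0.39 ± 0.043, edgeR adjusted p = 9e-07), and it averaged 9.4 CPM in 2iLif. Zic2 (0.17 ± 0.10), Zic5 (-0.18 ± 0.081) and Sox3 (-0.10 ± 0.14) did not pass. In bulk libraries fewer cells of a type and less RNA per cell cannot be told apart, which holds for all the marker levels given here.

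**Figure D3:**
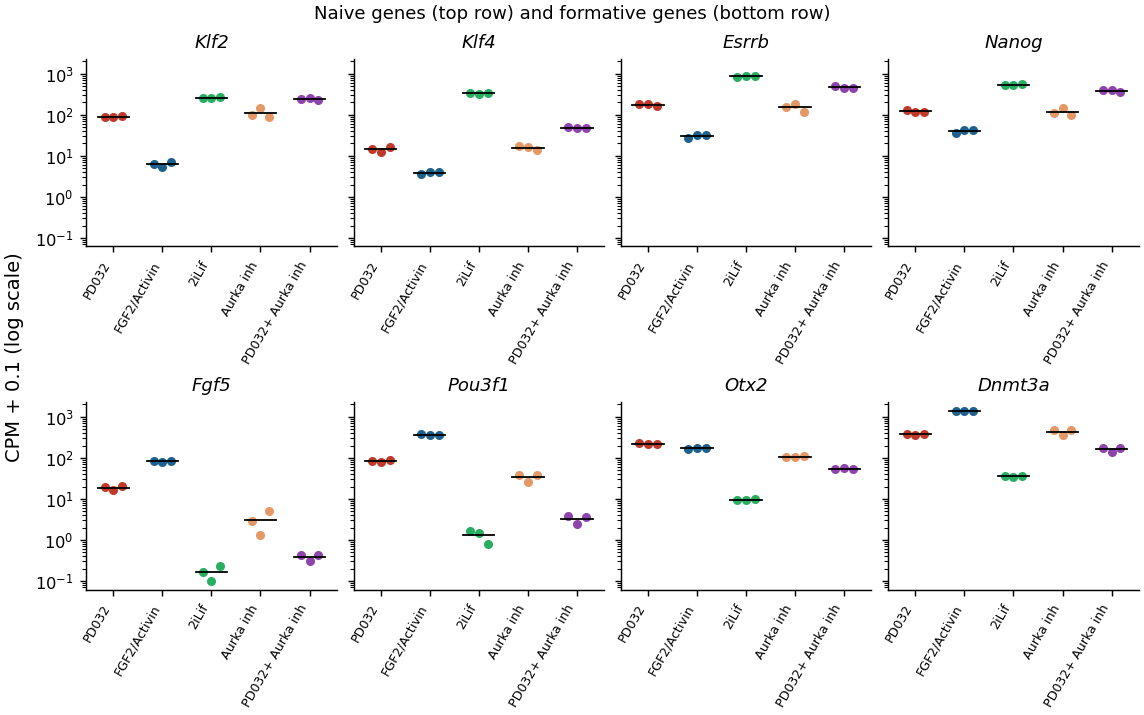
CPM plus 0.1 on a log scale for 4 naive genes (Klf2, Klf4, Esrrb, Nanog; top) and 4 formative genes (Fgf5, Pou3f1, Otx2, Dnmt3a; bottom), one point per library and a bar at the group mean. The naive genes are higher in PD032 than in FGF2/Activin and highest in 2iLif, while Otx2 is the formative gene that is higher in PD032, at 222 CPM on average against 169.6 CPM in FGF2/Activin.

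Most of the neural genes tested were higher in PD032. Of 18 listed neuroectoderm genes 10 had enough counts, 7 were higher, none was lower and 3 did not pass, with a median log2 fold change of 1.09. Thus 70.0% were higher, beside 29.9% higher and 29.0% lower of all genes tested. The count of 0 lower genes from edgeR was 0 at an unadjusted p under 0.05, 0 with DESeq2 and 1 with limma voom, and edgeR gave 1 with only the 6 libraries, without a filter on low counts and with the replicate block. That gene was Nes each time (-0.43 to -0.38). Hesx1, a homeobox repressor of the anterior neural plate, had 25.2, 23.0 and 27.9 CPM in PD032, against 0.721, 0.128 and 0.511 CPM in FGF2/Activin (5.80 ± 0.23, edgeR adjusted p = 6.9e-12). Pax6, a paired-box factor of the eye and forebrain, had 12.8, 7.25 and 14.3 CPM in PD032, against 1.11, 0.893 and 0.575 CPM in FGF2/Activin (3.73 ± 0.39, edgeR adjusted p = 8.2e-07). Six3, a homeobox factor of the anterior forebrain, had 120 counts over the PD032 libraries and 2 over the FGF2/Activin libraries, a ratio of 44.9 per total count (95% counting interval 12.2 to 375). All 3 were low in each FGF2/Activin library, and Six3 was listed at 0 in every library of the other 3 conditions. Dll1, a Notch ligand, averaged 48.3 ± 3.3 CPM in PD032 and 14.7 ± 0.228 CPM in FGF2/Activin (1.72 ± 0.11), and Irx3 (1.52 ± 0.20), Sox1 (0.66 ± 0.22) and Tubb3 (0.43 ± 0.052) rose as well. Nes, Map2 and Lhx2 had log2 fold changes between -0.41 and 0.02 and did not pass. Sox1 no longer passed without PD032 replicate 1 (0.61) or FGF2/Activin replicate 2 (0.49), and Nes passed as lower without PD032 replicate 3 (-0.56).

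Genes of retinoic acid handling moved in both directions, 5 higher (45.5%) and 4 lower (36.4%) of 11 tested (median 0.75). Over all genes tested 29.9% were higher and 29.0% lower. Cyp26a1, the enzyme that degrades retinoic acid, had 6.13, 3.65 and 5.92 CPM in PD032, against 0.197, 0 and 0 CPM in FGF2/Activin. Its 340 counts in PD032 and 3 in FGF2/Activin give a ratio of 84.8 per total count (95% counting interval 28.8 to 413). All 3 of these counts are in FGF2/Activin replicate 1, and the log2 fold change of Cyp26a1 was 6.21 with all libraries and 9.63 without that one. Crabp2, a retinoic acid carrier, had 92.7, 113 and 99.5 CPM in PD032, against 20.2, 20.7 and 20.4 CPM in FGF2/Activin (2.32 ± 0.093, edgeR adjusted p = 6.4e-12). Cyp26a1 was close to 0 outside PD032, and Crabp2 was highest there among the 5 conditions. Aldh1a2, which makes retinoic acid, rose by 2.02 ± 0.32 on the log2 scale, while Dhrs3 (-1.13), the receptor Rarg (-0.78) and Crabp1 (-0.44) fell. Crabp1 no longer passed without PD032 replicate 1 (-0.36).

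Of 12 tested genes of the primitive streak and mesoderm 6 were lower, 2 higher and 4 did not pass (median -0.62). These counts stand beside 29.0% lower and 29.9% higher of all genes tested. The lower count was 4 with only the 6 libraries of both groups, with the replicate block on these 6, without PD032 replicate 1 and without FGF2/Activin replicate 1. Wnt3, a ligand that initiates the streak, had 6 counts in PD032 and 123 in FGF2/Activin (-4.72 ± 0.58, edgeR adjusted p = 3.7e-06). Mixl1, a homeobox factor of the streak, had 6 counts in PD032 and 47 in FGF2/Activin (-3.33 ± 0.56, edgeR adjusted p = 8.3e-05). T (Brachyury) had 8 and 23 counts in the same order, so all 3 rest on low levels in both groups. Eomes, a T-box factor, averaged 8.99 CPM in PD032 and 12.8 CPM in FGF2/Activin (log2 fold change -0.51, edgeR adjusted p = 0.0099), but it no longer passed without PD032 replicate 1 (-0.39) or FGF2/Activin replicate 1 (-0.36). The value of Wnt3 was -6.43 without PD032 replicate 1 and -4.10 without PD032 replicate 3. Snai1, a repressor of E-cadherin, went against the list with 11.4, 8.38 and 11.3 CPM in PD032, against 1.77, 1.08 and 1.28 CPM in FGF2/Activin (2.91 ± 0.19, edgeR adjusted p = 3.1e-09), and it separated the naming styles.

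Markers of other cells that the cultures could hold were summed per library. The 9 fibroblast markers summed to 10.8 to 14.3 CPM in the PD032 libraries and 21.5 to 22.9 CPM in the FGF2/Activin libraries, most of it Thy1, and Lum and Postn were at 0 counts in both. Dcn (decorin) averaged 0.113 CPM in PD032 and 4.55 CPM in FGF2/Activin (-5.29 ± 0.33, edgeR adjusted p = 3.6e-08), and Col1a2 0.319 and 2.08 CPM in the same order. The 10 primitive endoderm markers summed to 239 to 340.4 CPM in PD032 and 148 to 154 CPM in FGF2/Activin, nearly all of it the matrix protein gene Sparc, while Gata4, Pdgfra and Sox7 averaged under 2 CPM in both. Of 6 tested trophoblast genes 4 were higher (66.7%) and 2 lower (33.3%), beside 29.9% and 29.0% of all genes tested. The transcription factor Tfap2c averaged 17 ± 1.81 CPM in PD032 and 1.74 ± 0.369 CPM in FGF2/Activin, and the simple-epithelium keratin Krt18 10.4 ± 0.718 and 76.1 ± 4.13 CPM in the same order. Krt8, at -2.14 ± 0.22, separated the naming styles. Tpbpa, another gene of the trophoblast list, was at 0 counts in both groups. None of the 8 matched genes of the 2-cell-like state had enough counts to test, and they summed to 0.0914 to 0.129 CPM in PD032 and 0.128 to 0.131 CPM in FGF2/Activin. Of the 7 definitive endoderm genes 2 were tested, and Hhex was higher in PD032 (9.84 CPM, against 2.89 CPM in FGF2/Activin). Germline genes were lower in 5 and higher in 1 of 10 tested. Their part in the results was not tested.

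**Figure D4:**
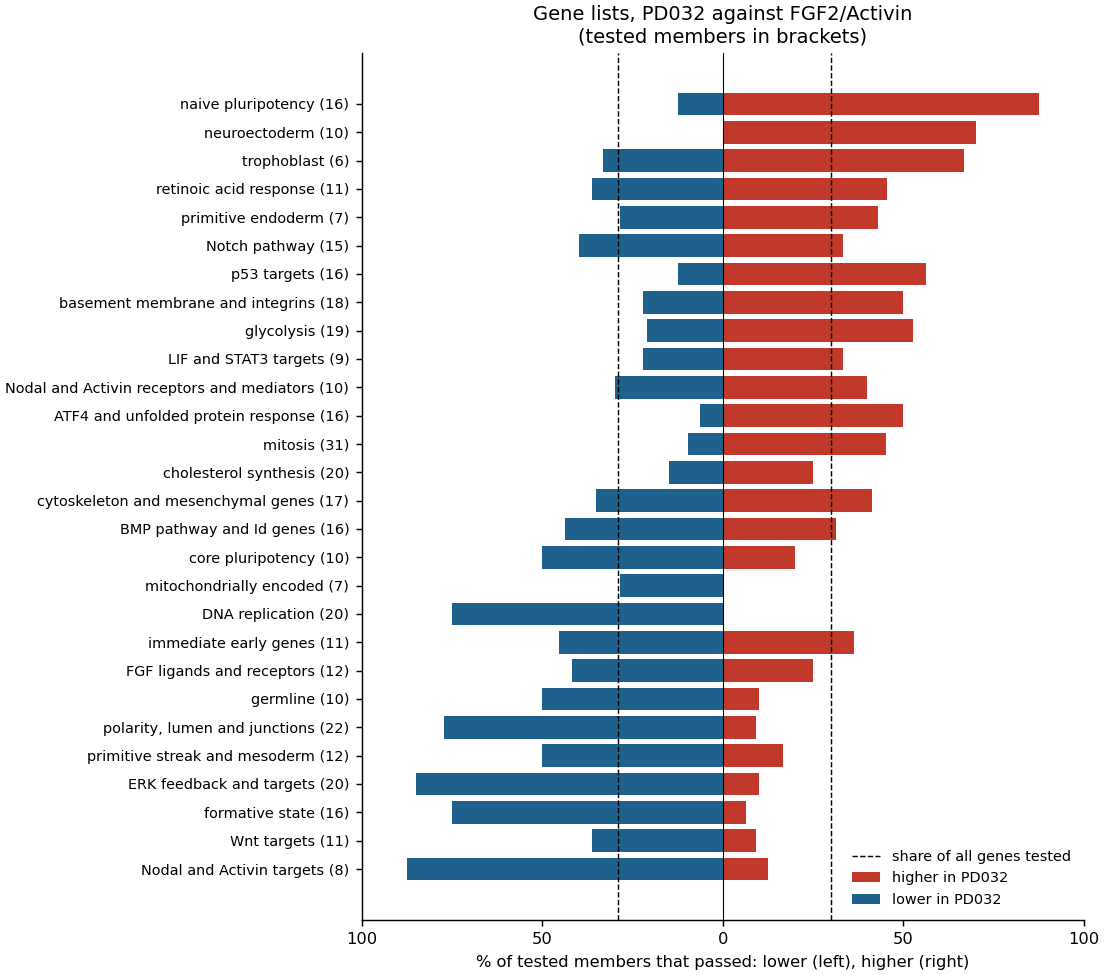
Share of the tested members of each list that passed as higher (right) or lower (left) in PD032, for lists with at least 6 tested members, ordered by median log2 fold change, with the shares over all genes tested (29.9% and 29.0%) as dashed lines. Naive pluripotency genes have the highest share of higher members, 87.5%, and Nodal and Activin targets the highest share of lower members, 87.5%.

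Receptors of LIF, the cytokine that supports naive cells through STAT3, were higher in PD032. Lifr averaged 67.9 ± 6.73 CPM in PD032 and 18.6 ± 1.5 CPM in FGF2/Activin (1.86 ± 0.10, edgeR adjusted p = 2.6e-10), and its partner Il6st 105 ± 3.56 and 39.3 ± 3.32 CPM in the same order (1.42 ± 0.078, edgeR adjusted p = 3.1e-10). Among 9 tested LIF and STAT3 genes 3 were higher (33.3%) and 2 lower (22.2%), near the 29.9% and 29.0% of all genes tested (median 0.15). Socs3, the feedback inhibitor that LIF induces, had 4.89, 1.5 and 6.0 CPM in PD032, against 2.23, 2.36 and 2.17 CPM in FGF2/Activin, and the groups overlapped although it passed (0.91 ± 0.34, edgeR adjusted p = 0.031). Socs3 did not pass without PD032 replicate 1 (0.80), PD032 replicate 3 (0.55) or any 1 FGF2/Activin replicate (0.88 to 0.94), nor with the replicate block (0.80, edgeR adjusted p = 0.054). It averaged 133 CPM in 2iLif. Wnt targets were lower in 4 (36.4%) and higher in 1 (9.09%) of 11 tested, so the share lower was near the 29.0% of all genes tested. Their median log2 fold change was -1.15, against 0.02 over all genes, and -0.72 with only the 6 libraries. The lower count was 5 with those libraries, RLE factors, no filter on low counts, limma voom or the replicate block, and without FGF2/Activin replicate 3. Axin2, the feedback inhibitor of Wnt signalling, had 4.66, 4.24 and 3.43 CPM in PD032, against 12.5, 11.6 and 14.2 CPM in FGF2/Activin (-1.64 ± 0.11, edgeR adjusted p = 2.7e-09), and both were far below the 124 CPM of 2iLif. Notum, a secreted Wnt inhibitor, moved the other way at 19.8 ± 2.39 CPM in PD032 and 6.7 ± 0.769 CPM in FGF2/Activin (1.56 ± 0.15).

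BMP pathway genes were split, 5 higher and 7 lower of 16 tested (median -0.15), with the Id genes mostly on the higher side. As shares, 31.2% were higher and 43.8% lower, beside 29.9% and 29.0% of all genes tested. Id1, a BMP target that blocks basic helix-loop-helix factors, had 7.08, 7.68 and 9.22 CPM in PD032, against 1.18, 1.21 and 1.34 CPM in FGF2/Activin (2.68 ± 0.18, edgeR adjusted p = 2.8e-09). Id3 averaged 28.4 ± 2.53 CPM in PD032 and 13.8 ± 1.48 CPM in FGF2/Activin (1.04 ± 0.091), and Id4 rose by 2.46, while Id2 fell by 0.60 ± 0.15. The groups of Id1 and Id3 did not overlap. Smad6, the inhibitory Smad of the BMP branch, was lower (-1.18), and so was the homeobox gene Msx1 (-2.30). Bmp4 and Bambi did not pass, at log2 fold changes of -0.15 and 0.03. In the Notch list 5 genes were higher (33.3%) and 6 lower (40.0%) of 15, beside 29.9% and 29.0% of all genes tested. The receptor Notch1 averaged 100.2 CPM in PD032 and 49.4 CPM in FGF2/Activin, and the receptor Notch3 72.4 and 222 CPM in the same order. The targets Hes1 (-1.36) and Hey1 (-1.38) were lower.

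Most genes of epithelial junctions and polarity were lower in PD032. Of 22 tested, 17 were lower (8 at least 2-fold), 2 higher and 3 did not pass, with a median log2 fold change of -0.62. Thus 77.3% were lower and 9.09% higher, beside 29.0% and 29.9% of all genes tested. Cldn7, a claudin of tight junctions, had 6.67, 6.66 and 6.6 CPM in PD032, against 55.8, 58.8 and 61.8 CPM in FGF2/Activin (-3.14 ± 0.19, edgeR adjusted p = 2.7e-09). Ocln (occludin) had 4.66, 3.6 and 3.82 CPM in PD032, against 22.1, 21.6 and 18.5 CPM in FGF2/Activin (-2.36 ± 0.18, edgeR adjusted p = 1.1e-08). Neither gene's groups overlapped. Rab25, a GTPase of apical recycling (-2.34 ± 0.15), the junction scaffold Cgn (-1.99 ± 0.16), Cldn6 (-1.77 ± 0.12) and the apical determinant Crb3 (-1.11 ± 0.11) also fell, and Cdh1 (E-cadherin) fell by 0.26 ± 0.041. Podxl, the sialomucin that lines the lumen, had 400.1, 327 and 393 CPM in PD032, against 199, 203 and 203 CPM in FGF2/Activin, so it rose (0.89 ± 0.20, edgeR adjusted p = 0.0017), as did the kinase gene Prkci (0.30 ± 0.05). Pard3, Prkcz and Myo5b did not pass, except Myo5b without FGF2/Activin replicate 1 (-0.75).

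Of 18 tested genes of the basement membrane and integrins 9 were higher and 4 (22.2%) lower (median 0.20). These counts stand beside 29.9% higher and 29.0% lower of all genes tested, so the share lower was below that of all genes. Nid1 (nidogen 1) had 81.5, 95 and 73.1 CPM in PD032, against 13.6, 13.9 and 14.0 CPM in FGF2/Activin (2.59 ± 0.20, edgeR adjusted p = 3.9e-08). Lama1, the laminin chain of the embryonic basement membrane, averaged 18.9 ± 2.4 CPM in PD032 and 4.53 ± 0.509 CPM in FGF2/Activin (2.07 ± 0.14). The integrin chain Itga3, a laminin receptor, had 11, 12 and 10.3 CPM in PD032, against 126, 129 and 122 CPM in FGF2/Activin (-3.50 ± 0.13, edgeR adjusted p = 4.4e-12). In the matrix genes PD032 was the higher group and in Itga3 it was the lower one, with no overlap in any of the 3. Lamb1 (-1.37) and Lama5 (-0.89), other laminin chains, and Itgb1 (-0.56) fell, and Itga6 did not pass. Vim (vimentin), from the cytoskeletal list, averaged 208 ± 11.6 CPM in PD032 and 57.2 ± 0.723 CPM in FGF2/Activin (1.87 ± 0.07, edgeR adjusted p = 2.8e-12). In that list 7 genes were higher (41.2%) and 6 lower (35.3%) of 17, beside 29.9% and 29.0% of all genes tested.

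Interferon-inducible genes and genes of antigen presentation were among the strongest falls. Because Oasl2, Gbp3, Gbp2b and Gbp2 were named by size, a list of 46 such genes was written after those values had been seen, and it supports no test. Of its 37 tested members 24 were lower, all at least 2-fold, 7 were higher and 6 did not pass, with a median log2 fold change of -2.03. The shares were 64.9% lower and 18.9% higher. Over all genes tested 29.0% were lower, 8.83% at least 2-fold lower and 29.9% higher. Gbp2, a guanylate-binding protein of the cell-autonomous defence, had 0.274, 0.161 and 0.214 CPM in PD032, against 41.9, 43.6 and 43.0 CPM in FGF2/Activin (-7.57 ± 0.18, edgeR adjusted p = 2.5e-14). Its paralogue Gbp2b had 10 counts in PD032 and 1784 in FGF2/Activin (-7.87 ± 0.23, edgeR adjusted p = 2.8e-13). Gbp3 had 2 and 468 counts in the same order, a FGF2/Activin to PD032 ratio of 313 per total count (95% counting interval 86.1 to 2589.8), and Oasl2, a relative of the oligoadenylate synthetases, had 3 and 772 counts, a ratio of 344 (117 to 1671). These 4 genes were at or near 0 in the other 3 conditions too, none above a mean of 1.01 CPM, so they were high in FGF2/Activin alone among the 5 media. Reads shared among the Gbp paralogues may have been split by the counting, which is not given.

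Other members that were lower included Irgm1, an immunity-related GTPase, with 2.24, 1.56 and 2.14 CPM in PD032, against 53.8, 52.1 and 55.7 CPM in FGF2/Activin (-4.75 ± 0.14, edgeR adjusted p = 1.5e-13). Irf1, a transcription factor of the interferon response, had 20.8, 15.4 and 18.6 CPM in PD032, against 131, 119.7 and 125 CPM in FGF2/Activin (-2.78 ± 0.10, edgeR adjusted p = 3.1e-12), and it separated the naming styles. The immunoproteasome gene Psmb10 averaged 5.17 CPM in PD032 and 107 CPM in FGF2/Activin (-4.38), and the class I gene H2-K1 12.5 ± 0.446 and 51.3 ± 1.75 CPM in the same order (-2.03 ± 0.15). All these groups were clear of each other. The 7 that rose included Ifitm1, a membrane protein also known from early embryos and germ cells, at 121, 97.8 and 123 CPM in PD032, against 19.8, 18.7 and 17.2 CPM in FGF2/Activin (2.62, edgeR adjusted p = 2.4e-11). Stat2 (0.44), the receptor chains Ifnar1 (0.34) and Ifnar2 (1.27), Jak2 (0.90) and B2m (0.97 ± 0.20) rose as well.

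The promoters of the Gbp genes that fell together, of Irgm1 and of Oasl2 are shown as the 250 bases before the annotated start (RefSeq, build GRCm38.p6), 5′ to 3′ on the strand of the gene. Capitals mark the core of the interferon-stimulated response element, which is TTTC, any 2 bases and TTTC again, read on both strands, with overlapping matches run together. The windows are chr3:142530086-142530335 for Gbp7, chr3:142559794-142560043 for the first of 2 Gbp3 entries, chr3:142594597-142594846 for Gbp2b, chr3:142620413-142620662 for Gbp2 and chr5:114896684-114896933 for Oasl2, all on the plus strand, and chr11:48871421-48871670 for Irgm1 on the minus strand.
Gbp7: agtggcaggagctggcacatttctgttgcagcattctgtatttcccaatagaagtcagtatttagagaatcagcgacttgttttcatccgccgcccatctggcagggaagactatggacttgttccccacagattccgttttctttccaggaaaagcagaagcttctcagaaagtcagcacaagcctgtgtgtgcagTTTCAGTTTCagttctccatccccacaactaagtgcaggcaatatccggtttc
Gbp3: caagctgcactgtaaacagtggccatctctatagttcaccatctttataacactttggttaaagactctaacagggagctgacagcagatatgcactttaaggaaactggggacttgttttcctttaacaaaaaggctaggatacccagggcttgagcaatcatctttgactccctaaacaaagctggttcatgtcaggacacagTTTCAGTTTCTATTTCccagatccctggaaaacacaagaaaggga
Gbp2b: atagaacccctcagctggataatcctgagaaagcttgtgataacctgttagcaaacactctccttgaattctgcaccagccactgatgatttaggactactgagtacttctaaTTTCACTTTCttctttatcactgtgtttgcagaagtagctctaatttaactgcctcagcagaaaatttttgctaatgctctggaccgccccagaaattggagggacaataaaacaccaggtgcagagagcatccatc
Gbp2: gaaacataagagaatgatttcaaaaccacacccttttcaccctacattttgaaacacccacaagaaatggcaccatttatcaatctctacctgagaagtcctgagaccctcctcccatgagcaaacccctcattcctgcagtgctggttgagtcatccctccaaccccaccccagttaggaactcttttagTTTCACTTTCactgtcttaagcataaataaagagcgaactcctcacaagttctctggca
Irgm1: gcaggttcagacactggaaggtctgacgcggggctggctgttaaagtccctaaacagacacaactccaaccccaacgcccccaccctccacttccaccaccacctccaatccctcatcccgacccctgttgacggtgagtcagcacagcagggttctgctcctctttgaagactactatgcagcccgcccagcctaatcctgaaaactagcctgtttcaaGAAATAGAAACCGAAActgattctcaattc
Oasl2: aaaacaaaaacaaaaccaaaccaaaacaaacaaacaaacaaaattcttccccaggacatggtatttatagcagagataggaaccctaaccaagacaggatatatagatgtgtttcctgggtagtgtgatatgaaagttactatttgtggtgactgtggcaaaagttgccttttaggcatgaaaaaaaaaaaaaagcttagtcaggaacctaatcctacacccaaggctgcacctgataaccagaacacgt
The match began 53 bases before the start in Gbp7, 45 in Gbp3, 137 in Gbp2b, 59 in Gbp2 and 30 in Irgm1, and Gbp3 and Irgm1 held 2 overlapping matches. No match was in the Oasl2 window. Of the 24 lower members of the interferon list 22 had a promoter entry, and 12 of these 22 held the motif. It was held by 3.46% of the 27025 genes of the promoter set, and over the 10980 tested genes with an entry 2.91%, over 880 genes at least 2-fold lower 6.25% and over 952 genes at least 2-fold higher 2.94%. The gamma-activated site TTCNNNGAA, which reads the same on both strands, was found in 7 of the 22 and in 8.13% of all genes of the set. In 18 promoter entries the 2 motifs shared a base. The list was drawn from interferon-inducible genes, so a high share of this response element was likely before any count. The share among its members that were not lower is not given. These shares therefore do not tie the motif to the fall in PD032. A match is a stretch of letters, and binding was not measured.

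Some genes that changed at least 2-fold in one direction were next to each other in the genome, among the falls and the rises alike. How many runs a random order of genes would hold is not given. Of the genes tested, taken in genomic order, 137 of the 1344 that were at least 2-fold lower lay in 40 runs of 3 or more neighbours that were all at least 2-fold lower, and 153 of the 1499 higher genes lay in 45 runs, the longest of either kind having 6 genes. On mm10 chromosome 7 from 30355489 to 30487223 a run of 6 was Lrfn3 (-1.30), Nfkbid (-3.76), Aplp1 (-2.71), Kirrel2 (-6.69), Nphs1 (-6.93) and Nphs1os, which had 2 counts in PD032 and 122 in FGF2/Activin. Nphs1os lies within Nphs1 on the other strand, and whether the counting used strand is not given, so its reads cannot be told apart from those of Nphs1 and the run may hold 5 genes measured separately. Nphs1 (nephrin), the adhesion protein of the podocyte slit diaphragm, had 0.549, 0.268 and 0.729 CPM in PD032, against 65.4, 66.8 and 65.2 CPM in FGF2/Activin. Kirrel2, a nephrin-like adhesion protein, had 0.457, 0.215 and 0.514 CPM in PD032, against 41.1, 45.2 and 41.6 CPM in FGF2/Activin. They start 625 bases apart on opposite strands, and both were near 0 in PD032 and at 4.74 to 12.0 CPM on average in the other 3 conditions. Wt1, a zinc finger factor of kidney and gonad, averaged 1.12 ± 0.291 CPM in PD032 and 55.7 ± 0.813 CPM in FGF2/Activin (-5.65 ± 0.19, edgeR adjusted p = 1.3e-12). Of 14 podocyte genes written down after these values were seen, 8 were tested, 4 were lower and 2 higher. These counts stand beside 29.0% lower and 29.9% higher of all genes tested. Synpo, which shapes the podocyte cytoskeleton, was too low to test. Cd2ap, which binds nephrin in podocytes, averaged 134 CPM in PD032 and 131 CPM in FGF2/Activin and did not pass.

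**Figure D5:**
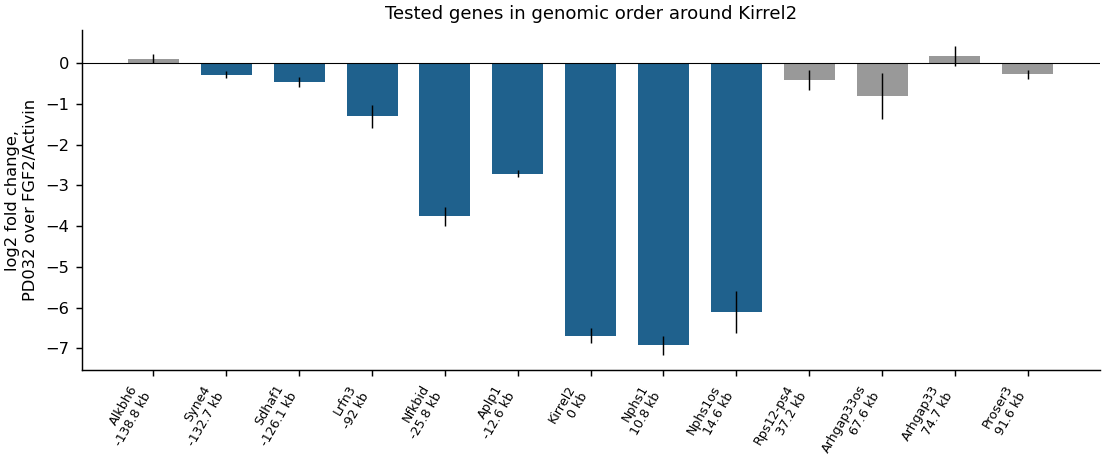
Log2 fold change of PD032 over FGF2/Activin with SE for tested genes in genomic order around Kirrel2, labelled with the distance of their first base from that of Kirrel2 in kilobases. Bars are coloured where the gene passed and grey where it did not, and the falls of at least 2-fold run from Lrfn3 to Nphs1os.

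Other runs joined members of one family or one imprinted domain. The Gbp7, Gbp3, Gbp2b and Gbp2 run lies on chromosome 3 from 142530342 to 142638008, and Psmb9 (-3.52), Tap1 (-1.52), Psmb8 and Tap2 (-5.87), the immunoproteasome and peptide transporter genes, form one on chromosome 17 from 34181987 to 34216321. Psmb8 had 1 count in PD032 and 306 in FGF2/Activin, a FGF2/Activin to PD032 ratio of 409 (95% counting interval 72.9 to 16204). Among the higher runs, the imprinted noncoding genes Meg3 (459 ± 53.5 CPM in PD032 and 178 ± 9.05 CPM in FGF2/Activin) and Rian and the imprinted Rtl1 formed one on chromosome 12 from 109541001 to 109661716 and rose by log2 fold changes of 1.05 to 1.37. Meg3 and Rian also separated the naming styles. Medians over the tested genes of a chromosome ran from -0.074 on chromosome 8 to 0.103 on chromosome 19.

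Most genes of DNA replication were lower in PD032, by less than 2-fold except for Ccne1, and mitotic genes did not all move one way. Of 20 tested replication genes 15 were lower and none higher (median -0.25), so 75.0% were lower beside 29.0% of all genes tested. The count of 0 higher genes from edgeR was 0 at an unadjusted p under 0.05, 0 with DESeq2, 0 with limma voom and 1 with library size alone in place of TMM. Ccne1 (cyclin E1), the only one past 2-fold, had 162, 155 and 162 CPM in PD032, against 441, 427 and 430.4 CPM in FGF2/Activin (-1.44 ± 0.069, edgeR adjusted p = 6.2e-11), and it separated the naming styles. The helicase genes Mcm2 (-0.36) and Mcm4 (-0.40) and the clamp gene Pcna (-0.38) fell by less. Of 31 tested mitotic genes 14 were higher, 3 lower and 14 did not pass, none changing by 2-fold (median 0.11), so 45.2% were higher beside 29.9% of all genes tested. With RLE factors or DESeq2 12 were higher and 5 lower, and 11 and 3 with the replicate block. Cdc25c (0.77), Cenpf (0.51) and Aurka (0.18) were among the higher genes.

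Stress and metabolic genes moved modestly apart from a few. Beside the counts of this paragraph stand the 29.9% of all genes tested that were higher and the 29.0% that were lower. Of 16 tested p53 targets 9 were higher and 2 lower (median 0.22). Pmaip1 (Noxa), a pro-apoptotic BH3 protein, had 7.68, 9.82 and 10.2 CPM in PD032, against 61.7, 57.4 and 62.3 CPM in FGF2/Activin (-2.71 ± 0.12, edgeR adjusted p = 2.6e-11), while Cdkn1a (p21) rose by 0.19 ± 0.06, a call lost without FGF2/Activin replicate 2 (0.17). Of 16 genes of the ATF4 and unfolded protein response 8 were higher and 1 lower: Ddit3 (CHOP) rose by 1.37 and the chaperone gene Hspa5 fell by 0.49. Of 19 glycolytic genes 10 were higher and 4 lower (median 0.18). Slc2a3, a glucose transporter, had 526, 391 and 491 CPM in PD032, against 65.6, 61.4 and 75.4 CPM in FGF2/Activin (2.80 ± 0.12, edgeR adjusted p = 6.2e-11). Ldha, lactate dehydrogenase A, averaged 849 ± 83.2 CPM in PD032 and 1491 ± 32.6 CPM in FGF2/Activin (-0.81 ± 0.11), and Ldhb rose by 1.03. Cholesterol synthesis genes were higher in 5 and lower in 3 of 20, none by 2-fold, and 5 higher and 6 lower with RLE scaling. Of 7 tested mitochondrially encoded genes 2 were lower and 5 did not pass, and the lower count ran from 1 to 4 over the alternatives.

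Among the genes named above without that remark, Smad7, Pmepa1, Inhbb, Acvr2a, Junb, Ier2, Fgf3, Dppa3, Foxd3, Sox7, Hhex, Crb3, Aplp1, Cenpf and Hspa5 also separated the naming styles.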

How the data were processed

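RNA of 15 libraries (5 conditions with 3 libraries each) had been sequenced, and the authors deposited raw counts per gene for all of them. Per the submitters' processing notes STAR, DESeq2 and the build mm10 were used, while tool versions, the counting program, its annotation and its use of strand were not given in the sources used here. A table of log2 normalized expression values that the authors deposited was not used. Each count column matched 1 sample by name, and 0 columns had no sample.

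Of 49585 genes in the table, 49326 matched GENCODE M21 by identifier, and 15223 passed filterByExpr. The quasi-likelihood test of edgeR 4.0.16 in R 4.3.3 was fitted to all 15 libraries with TMM factors, and p-values were adjusted by Benjamini-Hochberg over all 15223 genes. Fold changes are log2 of PD032 over FGF2/Activin, with SE. Two-sided tests were used throughout. On simulated data for this comparison with 15223 genes, the test recovered 55.2% of 67 genes changed 1.5-fold, 75.4% of 69 changed 2-fold and 93.8% of 64 changed 4-fold, and called 8 of 15023 unchanged genes. The simulation gave all groups the same spread per gene and held no batch. In the data 58.9% of genes passed and the spread was 9.32% in PD032 and 1.79% in FGF2/Activin, so these rates need not hold there. Alternatives used limma 3.58.1 and DESeq2 1.42.0. Tables and figures were made with Python 3.11.15, pandas 2.3.3, scipy 1.17.1 and matplotlib 3.10.9.

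Genes named by size were, in each direction, the 10 protein-coding genes of largest fold that passed, averaged at least 10 CPM in the higher group and had no overlap between the groups. From each list up to 4 members per direction were named by fold, all members of the pluripotency, ERK, FGF and Nodal lists, and some members that had not passed. A few further members were named after their values had been seen. The comparison and the 31 lists (470 genes) were chosen with earlier results of these data known, so no p-value is adjusted over a list and no list was tested. The interferon and podocyte lists, the promoter motifs and the neighbour runs were added after values had been seen. Promoters came from RefSeq (GRCm38.p6). Counting intervals are exact at 95% and cover counting error only. Some genes are not reported here.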

Additional observations from a re-analysis of the deposited data

How the results depend on the processing

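Higher genes made up 50.8% of the genes called, and 47.8% with DESeq2, 48.4% with RLE factors and 54.7% with library size alone, a share that the scaling sets. With edgeR, 4491 genes were higher and 4492 lower with only the 6 libraries, 4349 and 4631 with RLE factors, 4999 and 4487 without a filter on low counts, and 4929 and 4084 with library size alone, which moved the median of all genes to 0.055 from 0.019. DESeq2 called 4164 higher and 4540 lower, and limma voom with weights per group 4823 and 4687. Leaving out each replicate in turn gave 4106 to 4512 higher and 4029 to 4404 lower. No gene that passed was called in the opposite direction by an alternative.

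Deviations of same-numbered libraries from their group means correlated at 0.00748, -0.00627 and -0.0404. The FGF2/Activin replicates differed by little more than counting noise (chi-square 1.24 to 1.57 per degree of freedom). These correlations therefore cannot show whether the numbers pair the samples. With the replicate block 4330 genes were higher and 4369 lower, and 1309 and 1270 at least 2-fold.

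Of 2889 values of 223 named genes under the alternatives, 2805 kept direction and side of the threshold, 45 (12 genes) no longer passed, 20 (9 genes) newly passed and 19 (7 genes) changed sign. The 7 had not passed. Map2 was at -0.01 with RLE factors and with DESeq2, Prkcz at 0.03 with library size alone and 0.01 without the filter, and Fgf10 at 0.08 with limma voom. Leaving out a replicate gave -0.01 to 0.09 for Bambi, -0.28 to 0.01 for Bmp4, -0.58 to 0.84 for Fgf10, -0.28 to 0.01 for Fgf17, -0.76 to 0.04 for Lhx2, -0.10 to 0.18 for Map2 and -0.05 to 0.04 for Prkcz. The cause was not tested.

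The spread within PD032 is wider than within FGF2/Activin, and PD032 replicate 2 stands apart. No N2B27 library without additive is in the comparison, so a difference cannot be assigned to the presence of PD032 or to that of FGF2 and Activin. The naming style of the columns and the medium cannot be told apart.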
